A study of Mus musculus with 35 samples.

Results

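The genes described here were the 9 named members of the HIF pathway, Hif1a, Epas1, Arnt, Egln1, Egln2, Egln3, Vhl, Bnip3 and Vegfa, found by matching their Ensembl IDs to mouse symbols, out of 48709 genes in the count tables. RNA was sequenced from OT-I CTLs, effector CD8+ T cells grown from the spleens of mice that carry a TCR transgene against ovalbumin. All cells had been primed on antibodies to CD3 and CD28 and grown in mouse IL-2. The cells at 0 h form 1 of the 7 groups. The paper's methods for RNA sequencing do not say whether IL-2 was still present when they were collected. The other 6 groups spent a further 24 h at pH 7.4, pH 7 or pH 6.6, set with hydrochloric acid, either without IL-2 or with IL-2 at 200 IU/mL. Each group had 5 libraries, numbered 1 to 5 and called biological replicates by the submitters. The age of the mice, and whether each replicate came from its own mouse, were not given in the sources used here, so p-values measure the spread between these cultures.

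HIF is a transcription factor made of an oxygen-regulated alpha subunit, encoded by Hif1a or Epas1, and a constant partner encoded by Arnt. With oxygen present, prolyl hydroxylases encoded by the Egln genes mark the alpha subunit, the VHL protein binds the marked form, and a ubiquitin ligase sends it for destruction. In activated T cells the factor is known for driving glycolytic genes, and IL-2 and mTORC1 signalling are known to raise it without low oxygen. The mRNAs of Egln1, Egln3, Bnip3 and Vegfa are themselves textbook HIF targets, while control of the alpha subunit is mostly at the level of protein, which was not measured here.

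HIF binds a short core, ACGTG or GCGTG, and the promoter sequences of the members were searched for both on both strands, so that CACGTG counts once on each strand. RefSeq promoter windows of 300 bases (GRCm38.p6, 250 bases before a gene's start and 50 after) were at hand for 8 of the 9 members, and 7 of these 8 held at least 1 match. Vegfa is among the 7 only through its second window, which lies inside the annotated gene. Counted by window, as in the shares that follow, 8 of the 10 windows of these members held a match. Of all 32851 windows, 43.8% held at least 1 of the cores, 19.6% held ACGTG and 32.4% held GCGTG. The sequences below belong to the alpha subunit gene whose mRNA was most abundant and to the 4 HIF-target members, Egln1, Egln3, Bnip3 and Vegfa, whose mRNA fell at pH 6.6 when IL-2 was given. They hold no exon base of the gene's annotated transcripts, that of Hif1a lies in an intron of a longer annotated transcript, and they run 5′ to 3′ on the gene's strand, with matches in capitals.
Hif1a (chr12:73907617-73907866, plus strand): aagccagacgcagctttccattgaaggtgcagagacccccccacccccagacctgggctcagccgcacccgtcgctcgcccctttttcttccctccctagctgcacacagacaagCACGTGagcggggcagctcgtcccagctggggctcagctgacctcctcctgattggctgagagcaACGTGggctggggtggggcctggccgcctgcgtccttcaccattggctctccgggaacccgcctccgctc
Egln1 (chr8:124949325-124949504, minus strand): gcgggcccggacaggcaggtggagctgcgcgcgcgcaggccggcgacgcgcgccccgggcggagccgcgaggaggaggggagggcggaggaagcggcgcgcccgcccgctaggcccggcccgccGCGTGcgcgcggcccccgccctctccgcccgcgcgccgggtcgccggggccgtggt
Egln3 (chr12:54203875-54204124, minus strand): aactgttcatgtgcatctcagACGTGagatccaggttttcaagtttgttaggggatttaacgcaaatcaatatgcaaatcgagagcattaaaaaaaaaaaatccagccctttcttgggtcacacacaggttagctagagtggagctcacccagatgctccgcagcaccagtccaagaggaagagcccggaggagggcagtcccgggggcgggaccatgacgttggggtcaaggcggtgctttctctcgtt
Bnip3 (chr7:138909520-138909756, minus strand): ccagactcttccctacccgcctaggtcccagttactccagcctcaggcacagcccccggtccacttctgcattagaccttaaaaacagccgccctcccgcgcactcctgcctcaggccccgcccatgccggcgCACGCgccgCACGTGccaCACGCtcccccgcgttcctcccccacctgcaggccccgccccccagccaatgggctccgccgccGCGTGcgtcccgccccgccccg
Vegfa (chr17:46032378-46032627, minus strand, the first of 2 windows): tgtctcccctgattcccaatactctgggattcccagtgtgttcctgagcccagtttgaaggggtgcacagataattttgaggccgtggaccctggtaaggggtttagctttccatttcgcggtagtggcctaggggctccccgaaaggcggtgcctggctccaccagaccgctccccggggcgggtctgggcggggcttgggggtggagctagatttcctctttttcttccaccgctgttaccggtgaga

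The Bnip3 window held 5 matches, 2 of ACGTG and 3 of GCGTG, with a CACGTG that begins 108 bases before the start site. The Hif1a window held 3 matches, all of ACGTG, and the Egln3 window held 1. The Egln1 window held 2, of which an ACGTG at 68 bases before the RefSeq start lies inside an annotated transcript and is not shown. Egln2, whose mean level spanned the narrowest range of the hydroxylase genes, had 6 matches in 1 of its 2 windows and 1 in the other, Arnt had 1, Vhl had none in its window, and Vegfa had none in the first of its 2 windows and 2 in the second. That second Vegfa window (chr17:46025114-46025413) lies inside the annotated gene, keeps 0 bases ahead of annotated exon bases and is not shown. These are matches of letters and say nothing on whether HIF was bound.

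Levels are given as CPM, read counts scaled to the size of the library with TMM, as the mean ± SD of 5 libraries, and total counts ran from 16721319 to 34033340 per library with a median of 24730020. All 9 members passed the filter on low counts, and the lowest count of any member in any library was 47, for Epas1. Differences are log2 fold changes with their standard error (SE) and a p adjusted over all 13819 genes tested (edgeR's quasi-likelihood test), and a gene is said to have risen or fallen where the adjusted p was under 0.05. As for the identity of the cells, Cd8a stood between 674 and 1596 CPM, B cell markers summed to at most 0.381 CPM and erythroid ones to at most 0.235, whereas the myeloid, NK and endothelial lists were carried by Itgax, Klrb1c and Pecam1 with Csf1r, Ncr1 and Cdh5 at or near 0. Reads outside annotated genes made up 3.91 to 5.18% at pH 7.4 with IL-2, 7.34 to 8.83% at pH 6.6 with IL-2 and 7.70 to 10.2% at pH 7.4 without IL-2, and the part of this in the differences below was not tested. In bulk RNA, fewer cells of a kind and less RNA per cell cannot be told apart. Replicate 1 was below the other 4 at pH 7.4 with IL-2 for Egln1, Egln3, Bnip3 and Vegfa, though not an outlier by Dixon's criterion in any of these sets. Changes of these genes that passed and that involve this group are also given without it, although it was picked from its values. At 0 h replicates 2 and 3 were lower than the other 3 for the same genes. Over all libraries Gzmb, also on the CD8 T cell list, ran from 36.7 to 9006 CPM and Prf1 from 11.1 to 685 CPM. The lowest values of Cd3d, Cd3e, Cd3g and Cd8b1 were 282, 373, 398 and 211 CPM. Summed over that whole list, the median was 10237 CPM at pH 7.4 with IL-2, 3993 CPM at pH 6.6 with IL-2 and 3157 CPM at pH 7.4 without IL-2. In the same order, the median sum of myeloid markers was 2.81, 9.36 and 18.7 CPM and that of NK markers was 43.9, 25.1 and 33 CPM. That of stromal and endothelial markers was 29.2, 31.2 and 92.4 CPM. The part of these markers in the results was not tested.

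Per kilobase of exon, Hif1a mRNA was far above that of Epas1, the other alpha subunit gene, in every group. Hif1a (chr12:73901375-73947530, plus strand, GRCm38) stood between 61.7 CPM per kilobase at 0 h and 151 at pH 6.6 without IL-2, and Epas1 (chr17:86753700-86833410, plus strand) between 0.695 at pH 6.6 and 1.67 at pH 7.4, both with IL-2. The ratio of Hif1a to Epas1 in cultures with IL-2 was 55.4 ± 31.3 at pH 7.4 and 204 ± 94.1 at pH 6.6 (SD, n = 5). Arnt (chr3:95434388-95497240, plus strand) lay between the alpha subunits, at 6.13 to 15 CPM per kilobase. Vhl (chr6:113623959-113631633, plus strand) stood at 9.70 to 21.7 CPM per kilobase. Levels of the targets spread more widely, with Bnip3 (chr7:138890836-138909519, minus strand) at 12.9 to 177 and Vegfa (chr17:46016993-46032369, minus strand) at 1.70 to 32.5 CPM per kilobase.

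**Figure D1:**
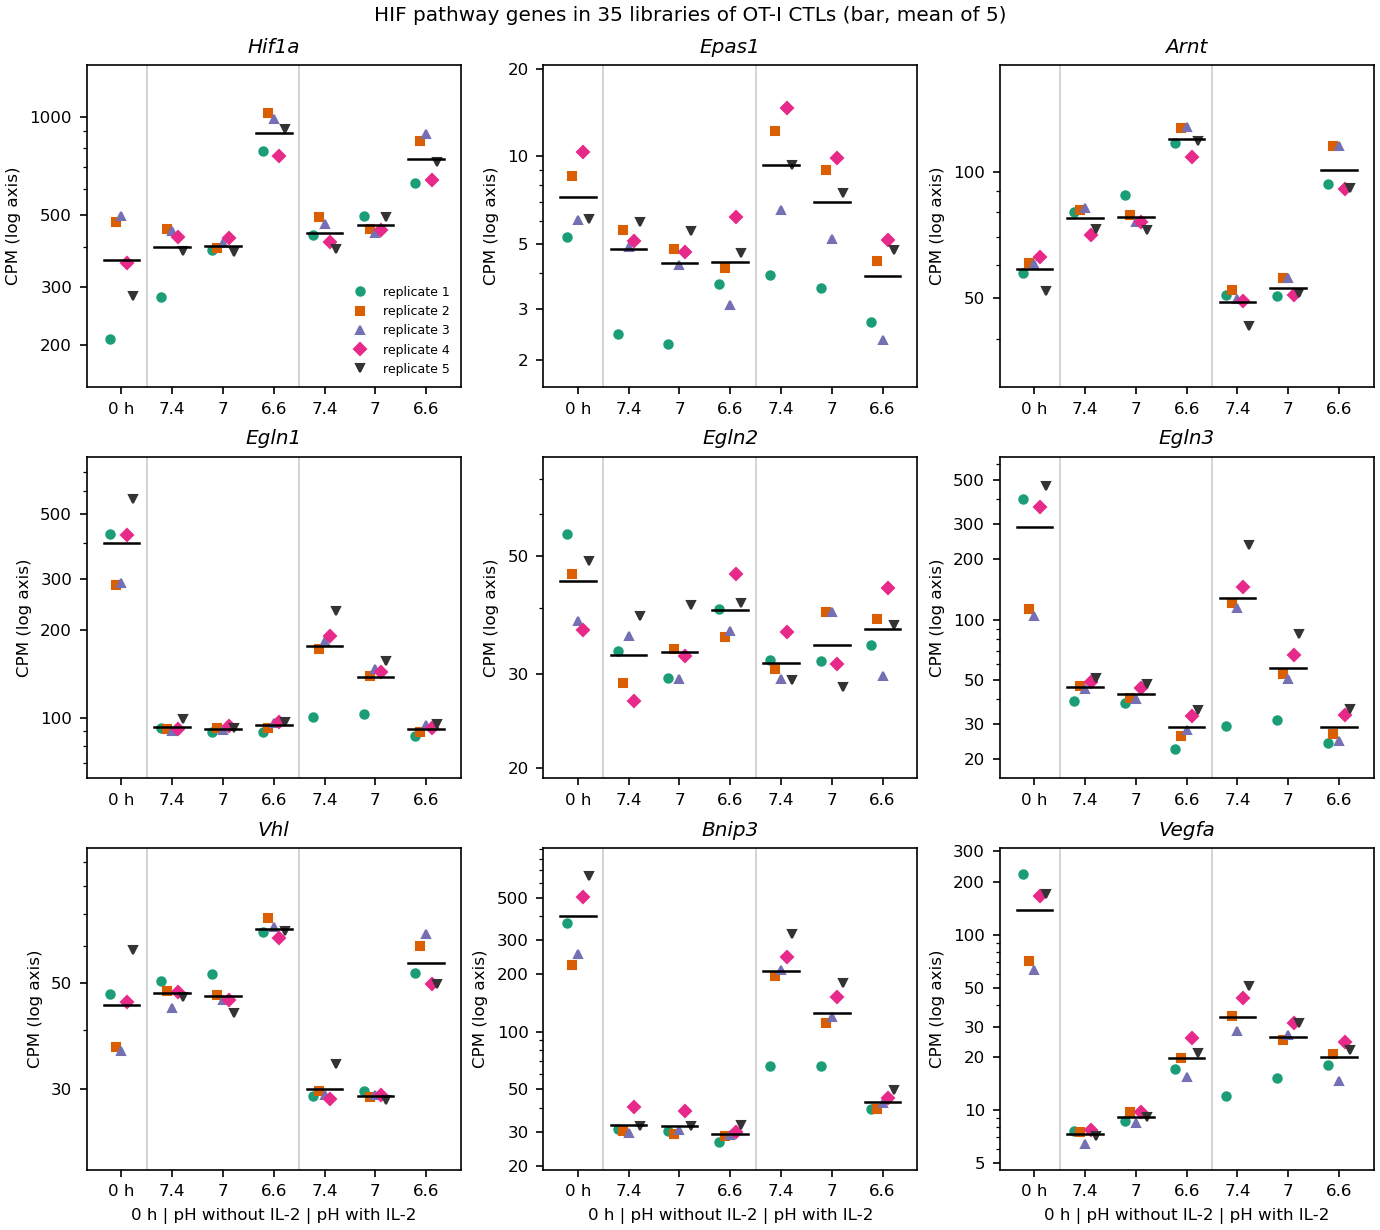
CPM of each member in all 35 libraries, on log axes whose range differs between panels, with 1 symbol for each replicate number and a bar at the mean of 5, for 0 h and for the 3 pH values without and with IL-2. Hif1a is highest at pH 6.6 in both IL-2 conditions, while Egln1, Egln3, Bnip3 and Vegfa are highest at 0 h, and replicate 1 is lowest of 5 for these last 4 genes at pH 7.4 with IL-2.

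The first comparison asked how acidity changed the pathway while IL-2 was present. At pH 6.6, the mRNAs of the HIF subunits Hif1a and Arnt and of Vhl rose, while those of the hydroxylases Egln1 and Egln3, of Epas1 and of the targets Bnip3 and Vegfa fell. In all, 8 of 9 members differed from pH 7.4, 3 higher and 5 lower, where 76.3% of all genes tested did (35.4% higher and 40.9% lower), so the number of members that changed was near the background. The median log2 fold change of the 9 members was -0.72, and that of all genes was -0.07. The 5 values at each pH did not overlap for 5 of the 9 members, where this held for 59.2% of all genes.

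With IL-2, Hif1a in replicates 1 to 5 stood at 433, 492, 469, 413 and 394 CPM at pH 7.4, and at 626, 843, 885, 637 and 728 CPM at pH 6.6. The lowest library at pH 6.6 was above the highest at pH 7.4, and the means of 440.2 ± 40.5 and 744 ± 117 CPM differed by 0.75 on the log2 scale (SE 0.13, edgeR adjusted p = 2.66e-06), a 1.68-fold rise. Arnt stood at 50.8, 52.3, 49.8, 49.3 and 43.0 CPM at pH 7.4 and at 93.3, 115, 115, 91.2 and 91.4 CPM at pH 6.6. This rise of 1.04 (SE 0.06, edgeR adjusted p = 7.65e-16) was the most precise of the 9. Epas1 went the other way, from 3.93, 12.2, 6.57, 14.7 and 9.34 CPM to 2.71, 4.4, 2.35, 5.18 and 4.79 CPM. Every replicate was lower at pH 6.6, though the values of the 2 groups overlapped because replicates differed, and the fall was -1.22 (SE 0.17, edgeR adjusted p = 7.24e-08).

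Of the prolyl hydroxylase genes, Egln1 encodes the enzyme best known for setting HIF-1 alpha levels, Egln3 an inducible relative, and Egln2 one that is usually not induced by low oxygen. Egln1 (chr8:124908587-124949324, minus strand) stood at 100.4, 173, 184, 192 and 233 CPM at pH 7.4 with IL-2 and at 86.8, 89.6, 94.4, 92.1 and 95.3 CPM at pH 6.6. It fell by 0.92 on the log2 scale (SE 0.13, edgeR adjusted p = 1.14e-07), from a wide spread to a narrow one. With each replicate left out in turn, the difference ran from -1.06 (without replicate 1) to -0.82. Egln3 (chr12:54178981-54203860, minus strand) stood at 29.3, 121, 114, 145 and 236 CPM at pH 7.4 and at 24.1, 26.8, 24.7, 33.3 and 35.8 CPM at pH 6.6. Replicate 1 at pH 7.4 lay within the range at pH 6.6, the other 4 lay above it, and the fall was -2.07 (SE 0.32, edgeR adjusted p = 1.97e-06). With each replicate left out in turn, it ran from -2.31 (without replicate 1) to -1.87. Egln2 (chr7:27158658-27166802, minus strand) ranged from 29.3 to 36.1 CPM at pH 7.4 and from 29.8 to 43.6 CPM at pH 6.6. Its difference of 0.22 did not pass (95% interval -0.03 to 0.46, edgeR adjusted p = 0.11), although it was higher at pH 6.6 in 5 of 5 replicates and passed with DESeq2 (0.27, adjusted p = 0.0393), with RLE or upper-quartile scaling, with only these groups in the fit and without replicate 3 (0.33, edgeR adjusted p = 0.0276).

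Vhl, the substrate receptor of the ligase, rose from 29, 29.8, 29.1, 28.6 and 33.8 CPM at pH 7.4 with IL-2 to 52.7, 60.0, 63.6, 49.9 and 49.7 CPM at pH 6.6. The groups did not overlap, and the log2 difference was 0.88 (SE 0.09, edgeR adjusted p = 4.00e-10). Bnip3, which encodes a mitochondrial receptor for mitophagy, had the largest fall of the 9. Its levels were 65.9, 194, 209, 244 and 323 CPM at pH 7.4 and 39.3, 39.3, 42.3, 45.3 and 49.5 CPM at pH 6.6, a change of -2.19 (SE 0.22, edgeR adjusted p = 3.53e-10) or 4.56-fold. With each replicate left out in turn, the change ran from -2.44 (without replicate 1) to -2.04. Of 50-base windows in Bnip3 exons 83.5% were unique among transcripts, the others being shared with the genes Gm14506, Gm16439, Gm6532 and Gm9419, so part of its reads could have been set aside in counting. Vegfa, a secreted growth factor for blood vessels, stood at 12, 34.6, 28.1, 43.6 and 50.9 CPM at pH 7.4 and at 18, 21, 14.8, 24.6 and 22.1 CPM at pH 6.6. Replicate 1 was higher at pH 6.6 and the other 4 were lower, and the difference of -0.72 (SE 0.26, edgeR adjusted p = 0.0131) no longer passed without replicate 3 (-0.59), replicate 4 (-0.69) or replicate 5 (-0.58), and was -0.92 without replicate 1.

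**Figure D2:**
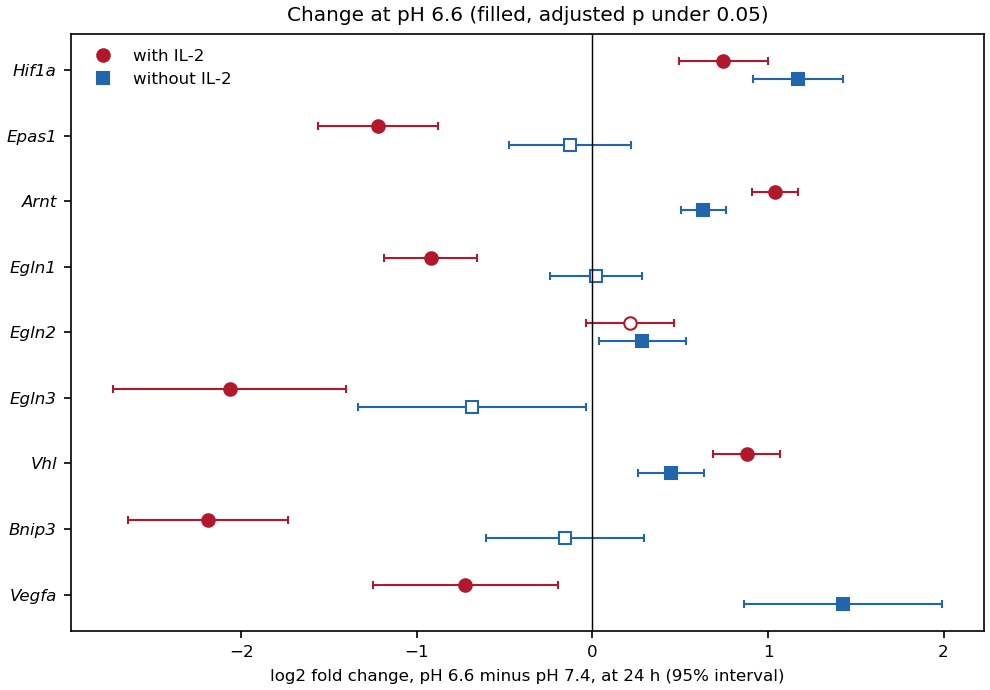
Log2 fold change of each member from pH 7.4 to pH 6.6 at 24 h (horizontal axis), with IL-2 (circles) and without (squares), with 95% intervals from edgeR and filled symbols where the adjusted p was under 0.05. Hif1a, Arnt and Vhl lie to the right of 0 in both, Epas1, Egln1 and Bnip3 lie to the left with IL-2 and near 0 without, and Vegfa lies on opposite sides.

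Without IL-2, pH 6.6 raised 5 of the 9 members and lowered none, where 67.0% of all genes changed, 31.6% upward and 35.4% downward. The members' median was 0.28 and the all-gene median -0.03. Hif1a was 280, 451, 447, 429 and 387 CPM at pH 7.4 and 783, 1025, 984, 755 and 918 CPM at pH 6.6 without IL-2. Each of the 5 replicates rose, without overlap, by 1.17 on the log2 scale (SE 0.13, edgeR adjusted p = 1.21e-09), the largest Hif1a difference between pH values. Arnt rose by 0.63 (SE 0.06, edgeR adjusted p = 2.68e-10), from 77.4 ± 5.18 to 119.9 ± 8.03 CPM, and Vhl by 0.45 (SE 0.09, edgeR adjusted p = 7.68e-05), from 47.6 ± 2.28 to 65.0 ± 2.40 CPM, again without overlap. Egln2 rose by 0.28 (edgeR adjusted p = 0.0400), a call that was lost without replicate 1 (0.29), 2 (0.28) or 4 (0.16), with both other filters and with upper-quartile scaling (0.17).

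The members that had fallen in the presence of IL-2 behaved differently in its absence. Egln1 was at 92.8, 91.7, 90.4, 91.8 and 99.0 CPM at pH 7.4 without IL-2 and at 89.3, 92.6, 96.3, 96.9 and 96.7 CPM at pH 6.6. These groups overlapped and the difference was 0.02 (95% interval -0.24 to 0.28). Bnip3 ranged from 29.5 to 40.5 CPM at pH 7.4 and from 26.6 to 32.6 CPM at pH 6.6, with a difference of -0.16 (95% interval -0.60 to 0.29). Epas1 differed by -0.13 (95% interval -0.47 to 0.22). Egln3 went from 38.9, 46.4, 44.7, 48.8 and 51.2 CPM to 22.5, 26.1, 28.1, 33 and 35.3 CPM, and the groups did not overlap, as for 47.4% of all genes. That difference of -0.69 did not pass (SE 0.32, edgeR adjusted p = 0.0569), but did with only these groups in the fit (-0.69), with the strict filter (-0.70), with upper-quartile scaling (-0.81) and without replicate 1 (-0.66, edgeR adjusted p = 0.0166). Vegfa rose from 7.65, 7.46, 6.39, 7.72 and 7.15 CPM to 17.2, 19.8, 15.4, 25.9 and 21.2 CPM, without overlap and by 1.43 (SE 0.28, edgeR adjusted p = 4.74e-05).

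Whether the change at pH 6.6 differed with IL-2 from that without was tested as an interaction, which passed for 8 of 9 members, 2 positive and 6 negative, and for 67.0% of all genes (34.3% positive and 32.8% negative). The interaction, the log2 change with IL-2 minus that without, was -2.03 for Bnip3 (SE 0.31, edgeR adjusted p = 1.22e-06) and -2.15 for Vegfa (SE 0.38, edgeR adjusted p = 1.25e-05). Those of Egln1 (-0.94), Epas1 (-1.09) and Egln3 (-1.38) were also negative, the last with edgeR adjusted p = 0.00843 and lost without replicate 5 (-1.16). Without replicate 1 the interaction was -2.30 for Bnip3, -2.42 for Vegfa, -1.10 for Egln1 and -1.65 for Egln3. The values closest to 0 with a replicate left out were -1.86, -1.98, -0.81 and -1.16 in the same order. Arnt (0.41) and Vhl (0.43) had positive interactions, their rise being larger with IL-2. The interaction of Hif1a (-0.42, edgeR adjusted p = 0.0343) did not pass without replicate 1 (-0.29), 2 (-0.43), 3 (-0.37) or 5 (-0.44), with either other filter, without the replicate block (-0.41) or with upper-quartile scaling (-0.17). For Egln2 it was -0.07 (95% interval -0.42 to 0.28).

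At the milder pH 7, Egln3 and Bnip3 fell with IL-2 present, and no member passed without it. Without IL-2, 0 of 9 members differed from pH 7.4 with edgeR, with DESeq2 or at an unadjusted p under 0.05, where 1.68% of all genes did with edgeR (1.36% higher and 0.318% lower). The closest was Vegfa, whose 5 values of 8.49 to 9.80 CPM at pH 7 lay above the 5 of 6.39 to 7.72 CPM at pH 7.4 (0.33, 95% interval -0.24 to 0.91), as for 1.45% of all genes, and which passed with only these groups in the fit. With IL-2, 2 of 9 members fell where 19% of all genes changed (9.15% higher and 9.83% lower). Egln3 fell from the values above to 31.5, 53.3, 50.5, 66.2 and 84.6 CPM, lower in 4 of 5 replicates (-1.12, SE 0.31, edgeR adjusted p = 0.0124), but did not pass without replicate 2 (-1.10), 4 (-1.12) or 5 (-1.0), and was -1.25 without replicate 1. Bnip3 fell to 66.4, 111, 120, 152 and 179 CPM, also lower in 4 of 5 (-0.70, SE 0.21, edgeR adjusted p = 0.0200), and did not pass without replicate 2 (-0.67), 3 (-0.67) or 4 (-0.70) or with the loose filter (-0.69), and was -0.79 without replicate 1. In both genes replicate 1 had about the same level at pH 7 as at pH 7.4, and the groups overlapped for each of the 9 members, while 13.2% of all genes did not overlap. Egln1, at 104, 139, 147, 144 and 157 CPM at pH 7 with IL-2, differed by -0.34 (edgeR adjusted p = 0.0607) and passed without replicate 1 (-0.40, edgeR adjusted p = 0.0139) and with DESeq2. The interaction at pH 7 passed for 0 of 9 members with edgeR and with DESeq2, against 4.79% of all genes (2.19% positive and 2.6% negative), while 2 members, Egln3 (-1.0) and Bnip3 (-0.68), had an unadjusted p under 0.05, and Egln3 passed without replicate 1 (-1.11, edgeR adjusted p = 0.0491).

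The next comparison was of IL-2 against none at the same pH. The cultures without IL-2 at pH 7.4 are the same libraries used above, so these values and those of the acid comparisons share samples. At pH 7.4, IL-2 raised 5 members and lowered 2, where 80.4% of all genes changed (39.3% higher and 41.1% lower). The targets rose most, Bnip3 by 2.58 (SE 0.23, edgeR adjusted p = 1.05e-11), from 32.7 ± 4.48 to 207 ± 93.3 CPM, and Vegfa by 2.17 (SE 0.28, edgeR adjusted p = 3.40e-08), from 7.27 ± 0.540 to 33.9 ± 15 CPM. The 5 values of each did not overlap between the groups, which held for 65.8% of all genes. Egln3 rose by 1.37 (SE 0.31, edgeR adjusted p = 0.000279), in 4 of 5 replicates, Epas1 by 0.90 and Egln1 by 0.90. Without replicate 1 the rises were 2.85 for Bnip3, 2.42 for Vegfa, 1.62 for Egln3 and 1.06 for Egln1. The smallest rises with a replicate left out were 2.40, 1.99, 1.15 and 0.80 in the same order. Arnt (-0.66) and Vhl (-0.66) fell, each without overlap. Hif1a differed by 0.15 (95% interval -0.10 to 0.41) and Egln2 by -0.05 (95% interval -0.30 to 0.20).

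At pH 7, IL-2 raised Bnip3, Vegfa, Epas1 and Egln1 and lowered Arnt and Vhl, with 6 of 9 members past the threshold and 77.2% of all genes (37.6% higher and 39.5% lower). The 5 values of each group did not overlap for 6 members and 64.5% of all genes. These were not the same 6, since Epas1 passed with overlapping groups, whereas Hif1a, at 466 ± 25.3 CPM with IL-2 and 401 ± 16.2 CPM without, did not overlap and did not pass (0.22, 95% interval -0.03 to 0.48), other than with only these groups in the fit (0.24, edgeR adjusted p = 0.00491). The differences were 1.91, 1.49, 0.66 and 0.58 for the first 4 and -0.56 and -0.69 for Arnt and Vhl, and without replicate 1 they were 2.08 for Bnip3, 1.62 for Vegfa and 0.66 for Egln1. Egln3 differed by 0.37 (95% interval -0.27 to 1.01) and passed without replicate 1 (0.51, edgeR adjusted p = 0.0489). At pH 6.6 only 1 of 9 members passed, where 23.7% of all genes did (13.2% higher and 10.6% lower), and that was Arnt, at 101 ± 12.6 CPM with IL-2 and 119.9 ± 8.03 CPM without (-0.25, SE 0.06, edgeR adjusted p = 0.00379). The 5 values of Bnip3 at pH 6.6 with IL-2 all lay above the 5 without, as for 11.9% of all genes, but the difference of 0.55 did not pass (SE 0.22, edgeR adjusted p = 0.0666) other than with only these groups in the fit (0.59) or without replicate 1 (0.55, edgeR adjusted p = 0.0210). For Egln1 and Egln3 the levels at pH 6.6 were nearly alike with and without IL-2, with differences of -0.04 (95% interval -0.31 to 0.22) and -0.01 (95% interval -0.66 to 0.65). That of Vegfa was 0.02 (95% interval -0.52 to 0.55).

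**Figure D3:**
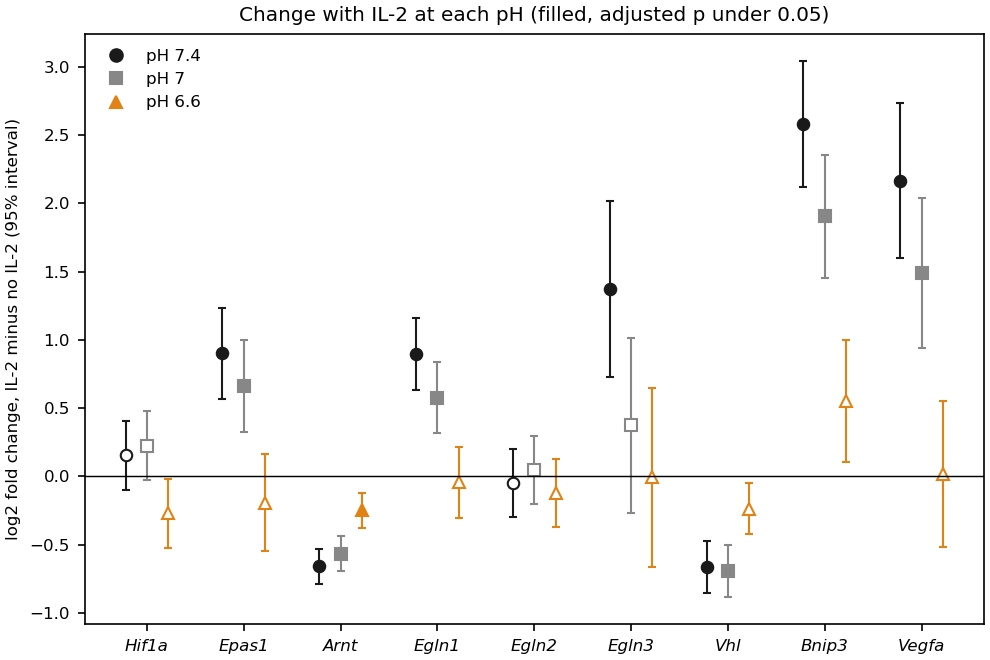
Log2 fold change of each member between cultures with and without IL-2 (vertical axis) at pH 7.4 (circles), pH 7 (squares) and pH 6.6 (triangles), with 95% intervals from edgeR and filled symbols where the adjusted p was under 0.05. Bnip3 goes from 2.58 at pH 7.4 to 0.55 at pH 6.6 and Vegfa from 2.17 to 0.02, while Arnt and Vhl lie below 0 at each pH.

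The cells at 0 h had the highest mean levels of all 7 groups for Egln1, Egln2, Egln3, Bnip3 and Vegfa and the lowest for Hif1a. Every 24 h group below is set against the same 5 libraries at 0 h. After 24 h at pH 7.4 without IL-2, 7 of 9 members differed from 0 h, 1 higher and 6 lower, where 75.2% of all genes did (36.9% higher and 38.3% lower). The groups did not overlap for 5 members and 51.2% of all genes. Vegfa fell from 224, 71.3, 63.0, 166 and 171 CPM to between 6.39 and 7.72 CPM, by 4.22 on the log2 scale (SE 0.29, edgeR adjusted p = 1.12e-13). Bnip3 fell from 371, 223, 253, 505 and 650 CPM to between 29.5 and 40.5 CPM, by 3.55 (SE 0.23, edgeR adjusted p = 2.88e-14). Egln3 (-2.59), Egln1 (-2.08), Epas1 (-0.61) and Egln2 (-0.46) fell as well and Arnt rose (0.40).

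With IL-2 at pH 7.4, 8 of 9 members differed from 0 h, 1 higher and 7 lower, where 59.9% of all genes did (29% higher and 30.9% lower), and 4 members did not overlap where 32.1% of all genes did not. The falls were -2.05 for Vegfa, -1.22 for Egln3, -1.18 for Egln1 and -0.97 for Bnip3, and without replicate 1 they were -1.53, -0.66, -0.98 and -0.69. Egln2 fell by 0.51 on the log2 scale. The rise of Hif1a (0.31, edgeR adjusted p = 0.0325) was lost without replicate 1 (0.15), 4 (0.33) or 5 (0.28), with upper-quartile scaling (0.16) and with only these groups in the fit (0.34), and Egln3 (-1.08) and Bnip3 (-0.98) did not pass with only these groups in the fit. At pH 6.6, 9 of 9 members differed from 0 h with IL-2, 3 higher and 6 lower, where 68.5% of all genes did (30.5% higher and 38.0% lower). Without IL-2, 8 of 9 differed, 3 higher and 5 lower, where 75.1% of all genes did (34.8% higher and 40.3% lower). The groups did not overlap for 7 members in each case, and for 42.9% of all genes with IL-2 and 51.3% without. Hif1a was 2.08-fold higher than at 0 h at pH 6.6 with IL-2 (1.06, SE 0.13, edgeR adjusted p = 7.31e-09) and 2.5-fold higher without (1.32, SE 0.13, edgeR adjusted p = 3.61e-11). Egln3 was lower by 3.28 in both. The fall of Egln2 with IL-2 (-0.30, edgeR adjusted p = 0.0314) was lost without replicate 1 (-0.19), 2 (-0.30), 3 (-0.22) or 5 (-0.26), with DESeq2 or RLE scaling (-0.23), with the strict filter (-0.27) and with only these groups in the fit (-0.24). The rise of Vhl with IL-2 (0.30) was lost without replicate 2 (0.20) and with only these groups in the fit (0.37), and was 0.46 without replicate 5.

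Replicates spread most in the groups where the 4 target genes were high. At 0 h the coefficient of variation over 5 libraries was 58.4% for Egln3, 49.9% for Vegfa, 44.6% for Bnip3 and 28.9% for Egln1, and at pH 7.4 with IL-2 it was 57.3%, 44.2%, 45.0% and 27.3%. At pH 7.4 without IL-2 it was 10.1%, 7.43%, 13.7% and 3.63%. At 0 h replicates 2 and 3 were the lowest of 5 for each of these genes, and the same 2 libraries had the highest Hif1a, at 476 and 497 CPM against 208 to 356 CPM in the other 3. Other targets moved with this, and the mean log2 CPM over 20 glycolytic HIF targets at 0 h was 8.09 and 7.92 in replicates 2 and 3 and 8.51 to 8.76 in the others. At pH 7.4 with IL-2 that mean was 6.68 in replicate 1 and 7.62 to 8.06 in the others. The part of differences between replicate cultures in the comparisons above was not tested beyond leaving out each number in turn.

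The make-up of the hydroxylase mRNAs shifted with these changes. The summed level of Egln1, Egln2 and Egln3 was 236 ± 95.8 CPM per kilobase at 0 h, 109 ± 40.7 at pH 7.4 with IL-2, 54.8 ± 3.31 at pH 7.4 without it and 49.4 ± 3.89 at pH 6.6 with it (SD, n = 5). Egln1 held close to the same share of that sum throughout, from 46.9 ± 5.92% at pH 7.4 with IL-2 to 53.5 ± 1.86% at pH 7 with IL-2. Egln3 held 42.6 ± 11.6% at 0 h and, with IL-2, 41.1 ± 11.8% at pH 7.4 and 21.9 ± 2.34% at pH 6.6. Egln2, whose own level moved least, went from 7.74 ± 3.16% at 0 h and 12 ± 6.17% at pH 7.4 with IL-2 to 26.4 ± 2.40% at pH 6.6 with IL-2, and it exceeded Egln3 per kilobase in the mean of both pH 6.6 groups.

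Among 16 other regulators of the pathway, 6 rose, 9 fell and 1 did not pass at pH 6.6 against pH 7.4 with IL-2, where 35.4% of all genes rose and 40.9% fell, with a median of -0.48 against -0.07 for all genes. The remaining parts of the VHL ubiquitin ligase went against Vhl itself, since the elongins Elob (-0.82) and Eloc (-1.12), the scaffold Cul2 (-0.83) and the RING protein Rbx1 (-0.65) each fell while Vhl rose. Without IL-2, Elob (0.25), Cul2 (0.61) and Rbx1 (0.48) rose along with Vhl, and Eloc differed by 0.00 (SE 0.13). The coactivators Crebbp (1.42) and Ep300 (0.81) and the asparaginyl hydroxylase Hif1an (0.66), which blocks their binding, rose with IL-2. Without IL-2 the coactivators rose by 0.49 and 0.32, and the interaction was 0.93 for Crebbp (SE 0.14, edgeR adjusted p = 5.33e-07) and 0.49 for Ep300 (SE 0.16, edgeR adjusted p = 0.00852). Arnt2, a relative of Arnt, fell in both conditions (-3.53 and -2.83), as did Cited2, a competitor for the coactivators (-0.41 and -0.66), and Hif3a (-1.06 and -1.78). Siah2, a ubiquitin ligase for Egln proteins, fell with IL-2 (-0.54) and rose without (0.80), Siah1a rose with IL-2 (0.95), Ube2s fell with IL-2 (-1.20) and rose without (0.95), Limd1 rose with IL-2 (0.39), Cited4 rose with IL-2 (1.08) and fell without (-1.03), and P4htm fell without IL-2 (-1.02).

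Most glycolytic HIF targets fell at pH 6.6 when IL-2 was present. With IL-2, 15 of 20 fell at pH 6.6, 0 rose and 5 did not pass, where 40.9% of all genes fell and 35.4% rose, with a median of -1.01 against -0.07 for all genes. The lactate exporter Slc16a3 went from 149 ± 75.9 to 13.9 ± 3.43 CPM (-3.35), the isomerase Tpi1 from 789 ± 307 to 78.3 ± 22.4 CPM (-3.31) and the hexokinase Hk2 from 179.9 ± 34.4 to 21.9 ± 7.80 CPM (-3.14). Without IL-2, 6 rose, 6 fell and 8 did not pass, where 31.6% of all genes rose and 35.4% fell, with a median of 0.03. Pgk1 (1.43), Aldoa (1.13) and Eno1 (0.76), all glycolytic enzymes, rose there, while the glucose transporter Slc2a1 (-1.0), Pfkl (-0.79) and the pyruvate dehydrogenase kinase Pdk1 (-0.54) fell. With IL-2 against none at pH 7.4, 16 of 20 rose and 2 fell, where 39.3% of all genes rose and 41.1% fell, with a median of 1.53 against -0.04 for all genes. At pH 7 with IL-2, 9 of 20 fell against pH 7.4 and 0 rose, where 9.83% of all genes fell and 9.15% rose, with a median of -0.46.

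Other HIF targets were mixed. With IL-2 at pH 6.6, 12 of 31 tested rose, 14 fell and 5 did not pass, with a median of -0.19, and both counts were near the 35.4% of all genes that rose and the 40.9% that fell. The mean log2 CPM of these 31 genes rose in replicate 1, from 4.18 to 4.44, and fell in replicates 2, 3, 4 and 5. Their median log2 fold change ran from -0.32 to -0.09 as each replicate number was left out. Without IL-2, 13 rose, 4 fell and 14 did not pass, with a median of 0.35, where 31.6% of all genes rose and 35.4% fell. The falls with IL-2 were led by the transferrin receptor Tfrc (-3.17), Fam162a (-2.56) and the oxidase Ero1a (-1.13), and the rises by the chemokine receptor Cxcr4 (2.16), the MYC antagonist Mxi1 (2.14) and the nuclear receptor Rora (2.09). Mxi1 (1.71) and Cxcr4 (1.64) also rose without IL-2, where the repressor Bhlhe40 rose most (2.10), from 244 ± 82.6 to 1023 ± 232 CPM. Of the other VEGF family members and their receptors, 5 of 9 genes had enough counts to be tested. With IL-2, 3 of these fell and 0 rose at pH 6.6, where 40.9% of all genes fell, and Vegfb, the one of them above the level set for naming, fell from 22.9 ± 4.12 to 12.8 ± 1.51 CPM (-0.84). Without IL-2, 4 of the 5 fell and 0 rose, where 35.4% of all genes fell, with a median of -2.03, while Vegfa itself rose. The 4 that fell were all below the level set for naming, with means of 0.526 to 19.4 CPM at pH 7.4 without IL-2. Vegfb differed there by 0.01 (edgeR adjusted p = 0.926).

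**Figure D4:**
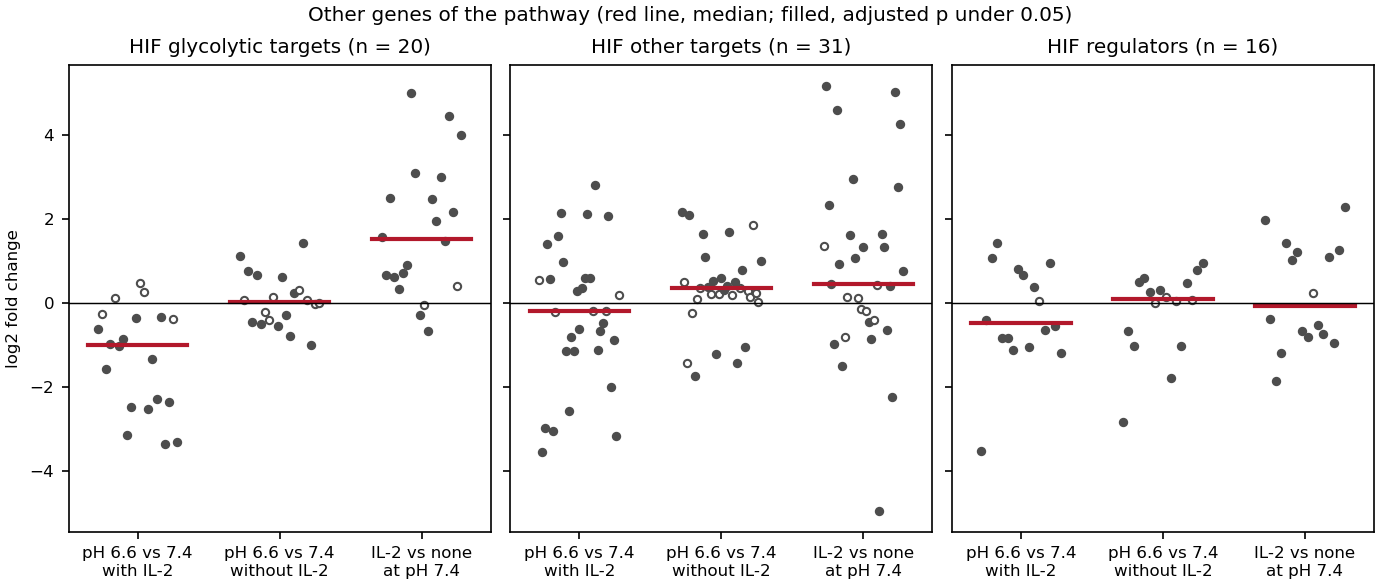
Log2 fold changes of the tested genes of 3 lists (vertical axis, 1 point a gene in alphabetical order, filled where the edgeR adjusted p was under 0.05, red line at the median) for pH 6.6 against pH 7.4 with and without IL-2 and for IL-2 against none at pH 7.4. Medians of the glycolytic targets are -1.01, 0.03 and 1.53.

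The genes whose pattern over the 35 libraries was most like that of each member were named by Pearson's r of log2 CPM, as a description, since points share groups and replicate numbers. Bnip3 was followed most closely by Fam162a (r = 0.991), Slc16a3 (0.981) and Tpi1 (0.977). Egln1 was followed by Pgm1 (0.989), Ero1l, an older symbol of Ero1a (0.974), and Grhpr (0.955), and Egln3 by Eif4ebp1 (0.950), Rgs11 (0.944) and Kctd11 (0.941). For Vegfa these were Afg3l2 (0.982), Aldoa (0.981) and Dnaaf5 (0.969). Hif1a was followed by Uhrf1bp1l (0.944), Exoc2 (0.943) and Chd1 (0.936), Arnt by Marf1 (0.986), Cog3 (0.983) and Phf8 (0.982), and Vhl by Aktip (0.975), Acp6 (0.967) and Fam117b (0.967). The values were lower for Epas1, with Cfp (0.852), Gzmd (0.833) and Fam20a (0.818), and for Egln2, with Gtpbp6 (0.848), Wdr24 (0.848) and Dpm3 (0.846). Among the members, r was highest for Egln1 and Bnip3 (0.945), Egln1 and Egln3 (0.940), Egln1 and Vegfa (0.912) and Egln3 and Bnip3 (0.904). It was lowest for Arnt and Bnip3 (-0.761), Arnt and Egln3 (-0.677) and Hif1a and Egln3 (-0.650). Arnt had 0.877 with Vhl and 0.706 with Hif1a. Hif1a had -0.510 with Egln1, -0.478 with Bnip3 and -0.232 with Vegfa. Epas1 had 0.565, 0.667 and 0.521 with the same genes and 0.647 with Egln3.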

How the data were processed

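RNA from 35 cultures was made into stranded libraries of polyadenylated RNA and sequenced as single reads. The authors deposited counts, 1 table of reads per gene for each library with no normalization. Per the labels, reads were processed with cutadapt 1.8, STAR 2.5.2b and HTSeq 0.6.1 on GRCm38. The annotation release and the strand setting of the counting were not given in the sources used here, so reads of a gene and an antisense partner may not be told apart. The exons of Hif1a overlap the opposite-strand gene Gm15283 over 5.60% of bases, and this gene had 0 to 296 counts per library with a median of 3, while Gm45507 opposite Bnip3 had at most 2. Rows without a gene entered neither library sizes nor tests, and reads aligned to several places made up 32.8 to 48.3% (median 37.1%). Their share was 39.3 to 48.3% at 0 h and 32.8 to 37.1% at pH 7.4 without IL-2. With IL-2 it was 36.8 to 40.6% at pH 7.4 and 36.2 to 37.9% at pH 6.6. The part of this in the comparisons was not tested. Libraries of a group differed by more than sampling noise (70 pairs, lowest chi-square per degree of freedom 6.38).

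Symbols, exon lengths and coordinates came from GENCODE M21 (GRCm38), in which 9 of 9 members matched, and promoter sequences from RefSeq. Groups followed the sample titles. Genes were filtered with filterByExpr (minimum count 10), which left 13819, and fitted on all 35 libraries with edgeR 4.0.16 (R 4.3.3), TMM scaling and the robust quasi-likelihood test, with group and replicate number as terms, since the study's own statistics are paired. P-values were adjusted with Benjamini-Hochberg over all genes tested. The common biological coefficient of variation was 0.12. After the main fit, the test was run on 1 simulated set of counts with the same spread between libraries and no replicate effect. In it 100 genes changed by 0.5 and 100 by 1 on the log2 scale at pH 6.6 with IL-2. Of these, 73 and 97 were called, as were 11 unchanged genes. With so few of the 13819 genes changed, it cannot show how the scaling does where most genes change.

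Members and gene lists were chosen with earlier results of these data known. Named were all members, all regulators, from each other list the 3 largest rises and 3 largest falls at pH 6.6 with and without IL-2 if past the threshold and at 3 or more in mean log2 CPM, and the 3 genes most correlated with each member. Alternatives were DESeq2 1.42.0, RLE and upper-quartile scaling, a loose filter (genes with 1 count or more somewhere) and a strict one (10 or more in each library), no replicate block, only the groups compared, and each replicate number left out.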

Additional observations from a re-analysis of the deposited data

Results flagged for a closer look

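In 3 of the 63 sets of 5 values (9 genes in 7 groups), 1 library lay far from the other 4 by Dixon's criterion, and chance gives about 1 in 20. Egln1 at pH 7.4 without IL-2 was 99.0 CPM in replicate 5 and 90.4 to 92.8 CPM in the others. Vhl at pH 7.4 with IL-2 was 33.8 CPM in replicate 5 and 28.6 to 29.8 CPM in the others. Bnip3 at pH 7.4 without IL-2 was 40.5 CPM in replicate 4 and 29.5 to 32.3 CPM in the others.

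For 8 members the change from pH 7.4 to pH 6.6 differed with IL-2 from that without, by edgeR's interaction test, as for 67.0% of all genes. The call of Hif1a was lost without replicate 1, 2, 3 or 5, with both other filters, with upper-quartile scaling and without the replicate block. The log2 change with IL-2 minus that without was -0.42 for Hif1a, -1.09 for Epas1, -0.94 for Egln1, -1.38 for Egln3, -2.03 for Bnip3 and -2.15 for Vegfa, and it was 0.41 for Arnt and 0.43 for Vhl. Vegfa fell with IL-2 and rose without, while Hif1a, Arnt and Vhl rose in both. The fall of Vegfa with IL-2 did not pass without replicate 3, 4 or 5, and the interaction of Egln3 did not pass without replicate 5.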

How the results depend on the processing

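Over the members and all alternatives, 1304 of the log2 fold changes kept their direction and their side of the threshold, 45 lost and 26 gained a call, and 29 changed sign, all of them uncalled values near 0. The number of members called at pH 7 with IL-2, 2 of 9, was 1 with the loose filter, 1 without the replicate block, 4 with only the groups compared, and 0 to 3 as each replicate number was left out. At pH 7 without IL-2 it was 0, and 1 with only the groups compared. For IL-2 at pH 6.6 it was 1, 4 with only the groups compared and 1 to 2 with a replicate left out, for the interaction at pH 7 it was 0, and 0 to 1 with a replicate left out, and for pH 7.4 with IL-2 against 0 h it was 8, and 5 with only the groups compared. The cause was not tested.

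Replicate numbers are shared by the groups, but the labels do not say what a number stands for. After group means were taken off, libraries with the same number correlated above 0.1 in 95 of 105 pairs (median 0.273, lowest -0.0387), and 35 of 35 libraries were closest on average to their own number, which is a hint from the data only. Without the replicate block, genes called went from 2623 to 1660 at pH 7 with IL-2, from 232 to 56 at pH 7 without, and from 662 to 177 for the interaction at pH 7. Members called without it, beyond those above, were 7 of 9 for the interaction at pH 6.6 (Hif1a lost), 7 for pH 7.4 with IL-2 against 0 h (Hif1a lost) and 6 for pH 7.4 without IL-2 against 0 h (Epas1 lost).

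In other alternatives too, the number of genes called differed by over 1.5 times from that of the main fit. At pH 7 with IL-2, 2623 in the main fit, it was 4397 with only the groups compared, 1343 without replicate 2 and 1323 without replicate 3. At pH 7 without IL-2, 232 in the main fit, it was 926 with only the groups compared. There it was 42, 91, 144 and 154 without replicates 2, 3, 4 and 5. For IL-2 at pH 6.6, 3278 in the main fit, it was 5494 with only the groups compared and 2120 without replicate 4. For the interaction at pH 7, 662 in the main fit, it was 1016 with DESeq2, 326 with the loose filter and 1618 with only the groups compared. There it was 99, 123, 303 and 378 without replicates 2, 3, 4 and 5.

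Upper-quartile scaling moved the median of all genes from -0.04 to -0.27 for IL-2 at pH 7.4 and from 0.04 to 0.30 for the interaction at pH 6.6. Values that changed sign with it were Egln1 (-0.10) and the median of the regulators (-0.012) at pH 6.6 without IL-2, Hif1a for IL-2 at pH 7.4 (-0.070), Egln2 for IL-2 at pH 7 (-0.14), Egln3 for IL-2 at pH 6.6 (0.028), Egln2 for the interaction at pH 6.6 (0.19) and Vhl for that at pH 7 (0.0071). The Egln3 value for IL-2 at pH 6.6 was also above 0 with DESeq2 (0.0075), RLE (0.0067), no replicate block (0.00088), only the groups compared (0.032) and the strict filter (4.9e-05), and Egln2 for the interaction at pH 6.6 with only the groups compared (0.038). With a replicate left out, values that crossed 0 ranged from -0.067 to 0.0038 for Vhl at pH 7 with IL-2, from -0.026 to 0.039 for Egln1 at pH 6.6 without IL-2, and, at pH 7 without IL-2, from -0.081 to 0.080 for Hif1a, from -0.015 to 0.041 for Arnt, from -0.038 to 0.088 for Egln2 and from -0.040 to 0.0011 for Vhl. For IL-2 they ranged from -0.17 to 0.046 for Egln2 at pH 7.4, from -0.11 to 0.20 for Egln2 at pH 7, and at pH 6.6 from -0.031 to 0.083 for Egln3 and from -0.0041 to 0.075 for Vegfa. For the interactions they ranged from -0.16 to 0.036 for Egln2 at pH 6.6, and at pH 7 from -0.059 to 0.24 for Egln2 and from -0.058 to 0.0026 for Vhl. Depth limits Epas1 most, with 47 counts in its lowest library.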

Other observations

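Bnip3 is 1 of several mitophagy receptors. Of 9 further mitophagy genes tested, 4 rose and 5 fell at pH 6.6 against pH 7.4 with IL-2, where 35.4% of all genes rose and 40.9% fell, with a median log2 fold change of -0.21 against -0.07 for all genes. Pink1, the kinase that marks damaged mitochondria, rose from 19.3 ± 3.76 to 113 ± 18.5 CPM (2.55, SE 0.09, edgeR adjusted p = 3.22e-21), and the autophagy adaptors Sqstm1 (1.49) and Nbr1 (1.32) rose too. The falls were led by Phb2 (-0.83), an inner membrane receptor, Optn (-0.81), an adaptor, and Fkbp8 (-0.51), an outer membrane receptor. Without IL-2, 4 rose, 1 fell and 4 did not pass, where 31.6% of all genes rose and 35.4% fell, and Pink1 differed by 0.14 (SE 0.09, edgeR adjusted p = 0.158). Bnip3l, the closest relative of Bnip3 and chosen here after its values were seen, rose by 0.58 with IL-2 (edgeR adjusted p = 7.64e-05) where Bnip3 fell, and was lowered by IL-2 at pH 7.4 (-0.98), where Bnip3 was raised.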
